A study of Mus musculus with 19 samples.

Results

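PANDORA-seq was compared with traditional small RNA-seq in sperm of DCHP-exposed mice, with 5 libraries of each method, 10 of the 19 libraries of the series. The libraries were chosen by their titles, which give the method, the exposure and a replicate number. The mice were wild type males of the C57BL/6J strain that received dicyclohexyl phthalate (DCHP), a plasticizer, by oral gavage for 4 weeks from 8 weeks of age, and sperm came from the cauda epididymis after lysis of somatic cells. RNA of gel-selected small size went into the libraries of both methods, and the PANDORA-seq libraries alone were made from RNA treated with AlkB and T4PNK. The 9 other libraries (4 PANDORA-seq and 5 traditional) are from control sperm and are used here only as a second setting of the same method comparison. The treatment field of the labels names DCHP for all 19 libraries, so exposed or control status rests on the titles. By the study's account the RNA of the sires went through both methods, but the sources used here do not tie a replicate number to an animal or give a library batch, so method and any batch of the method cannot be told apart.

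Ordinary small RNA libraries take up RNA with a 5′ phosphate and a 3′ hydroxyl, the ends that Dicer leaves on a microRNA (miRNA), and read through only those bases that reverse transcriptase can copy. Fragments of rRNA and tRNA often carry other ends, and tRNAs carry methyl groups on the base-pairing face of some bases. AlkB removes several of these methyl groups, and T4PNK adds 5′ phosphates and removes 3′ phosphates. Mature mouse sperm hold little cytoplasm, and their small RNA is known to be rich in fragments of tRNA (tsRNA) and rRNA (rsRNA) beside miRNA.

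The deposited counts of each distinct read of 15 to 45 nt summed to 28641772 to 47331215 in the PANDORA-seq libraries and to 21588335 to 43049494 in the traditional ones. Values are given as a percent of total reads or as reads per 1000000 total reads (RPM), so a class that takes more of a library leaves less for all others. Two-sided exact permutation tests over the 5 and 5 libraries were used for classes and lengths, for which the smallest possible p is 0.00794, and the quasi-likelihood test of edgeR for genes and single sequences. As a check of the tissue, 7 mRNAs of spermatids and sperm summed to 192 to 301 RPM in PANDORA-seq and to 248 to 381 RPM in traditional libraries. Mir143, a hairpin of smooth muscle, was read in every library as well, at 4.58 to 111 RPM in PANDORA-seq and at 1609 to 6882 RPM in traditional libraries. Mir122, the hairpin that defines liver, reached 3.74 to 111 RPM and 783 to 10008 RPM. The 6 blood cell hairpins summed to 0.634 to 2.65 RPM in PANDORA-seq and to 41.7 to 109 RPM in traditional libraries. Mir451a, the hairpin of red cells among them, was at 0 in PANDORA-seq replicates 1 and 2 and at 1.79 to 9.85 RPM in traditional libraries. The part of other cells in the miRNA results was not tested.

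The miRNAs and fragments on which the comparison turned are shown first. In the mature miRNAs, from RefSeq (GRCm38), capitals mark the seed, bases 2 to 8. miR-148a, miR-10a and miR-10b were among the miRNAs with the most reads in the traditional libraries, let-7f led its family, and let-7b and miR-184 are shown because they kept the order of their libraries between the methods when levels were set per total reads (9 and 8 of 10 pairs per miRNA read, 10 each per miRNA read of 20 to 24 nt). miR-10a and miR-10b share a seed, as do let-7f and let-7b.
miR-148a-3p: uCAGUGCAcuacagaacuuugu
miR-10a-5p: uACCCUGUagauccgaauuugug
miR-10b-5p: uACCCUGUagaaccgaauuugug
let-7f-5p: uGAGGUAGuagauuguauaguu
let-7b-5p: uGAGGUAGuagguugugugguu
miR-184-3p: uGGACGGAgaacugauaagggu

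The next sequences are single reads as deposited. Each is the read with the highest mean level among those that were higher, or those that were lower, in PANDORA-seq in its class. A capital marks the base that differs from the annotated gene.
18S rRNA, bases 1034 to 1063, higher: aagaacgaaagtcggagGttcgaagacgat
18S rRNA, bases 1 to 17, lower: tacctggttgatcctgc
Mir6240 hairpin, bases 57 to 88, higher: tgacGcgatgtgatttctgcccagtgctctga
mt-Th, bases 7 to 43, higher: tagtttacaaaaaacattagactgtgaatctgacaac
mt-Th, bases -1 to 40, lower: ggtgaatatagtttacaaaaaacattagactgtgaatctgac
n-TSgct5, bases 1 to 23, lower: gacgaggtggccgagtggttaag
Gm24494 snoRNA, bases 1 to 45, higher: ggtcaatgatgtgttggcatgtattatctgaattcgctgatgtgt
Gm24494 snoRNA, bases 1 to 43, lower: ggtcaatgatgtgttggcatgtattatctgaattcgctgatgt

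PANDORA-seq libraries held a larger share of fragments of the rRNAs in the reference, and smaller shares of miRNA and tRNA-matched RNA, than traditional libraries of the same exposure. Reads on rRNA took 30.7% ± 3.72 (SD, n = 5) of PANDORA-seq libraries and 5.81% ± 0.402 of traditional ones, a 5.28-fold difference (exact permutation test, adjusted p = 0.0119 over 9 classes). Reads on miRNA hairpins took 1.15% ± 0.0662 and 7.12% ± 2.27, the PANDORA-seq share being 0.162 times the traditional one (exact permutation test, adjusted p = 0.0119). In each of these classes the libraries of the methods did not overlap. Mitochondrial tRNA fell from 4.42% ± 1.03 in traditional libraries to 1.14% ± 0.545 in PANDORA-seq, and nuclear tRNA of the few genes in the reference from 0.246% ± 0.0469 to 0.0483% ± 0.0117 (exact permutation test, adjusted p = 0.0119 for each). These tRNA directions depend on the scale and the reference. Per miRNA read, which counts all hairpin reads, the folds were 1.47 for mitochondrial and 1.16 for nuclear tRNA. Reads matched to Mir6240 were 52.1% of the hairpin reads in PANDORA-seq and 1.02% in traditional libraries, so that scale rests partly on them. Per miRNA read of 20 to 24 nt the folds were 8.45 and 6.89. Without 2 G added to the mt-Th reference the mitochondrial fold was 0.942 (exact permutation test, adjusted p = 0.913). The remaining small RNAs, led by 7SL RNA, rose from 0.216% ± 0.0764 to 0.636% ± 0.125 (exact permutation test, adjusted p = 0.0119).

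Small nucleolar RNA (snoRNA), which guides the modification of rRNA, took 0.343% ± 0.0734 and 0.371% ± 0.212, and its libraries overlapped (exact permutation test, adjusted p = 0.913). Spliceosomal snRNA stood at 0.149% ± 0.0518 in PANDORA-seq and 0.218% ± 0.0398 in traditional libraries and missed the threshold of 0.05 (exact permutation test, adjusted p = 0.0510). The few mRNAs counted took 0.0464% ± 0.0073 and 0.0447% ± 0.00876 (exact permutation test, adjusted p = 0.875). Reads that matched no sequence of the reference, which lacks 28S rRNA and most nuclear tRNAs, made up 65.8% ± 4.08 of PANDORA-seq and 81.6% ± 2.53 of traditional libraries (exact permutation test, adjusted p = 0.0119). They also include a 37 nt read that is a 36 nt read of 5S rRNA with a further t. It averaged 8796 RPM in PANDORA-seq and 346 RPM in traditional libraries and is not in the 5S counts. Compared within replicate numbers, by an exact sign-flip test of 5 pairs whose smallest possible p is 0.0625, no class could pass the threshold, and the adjusted p was 0.0804 for each class named here as different.

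**Figure D1:**
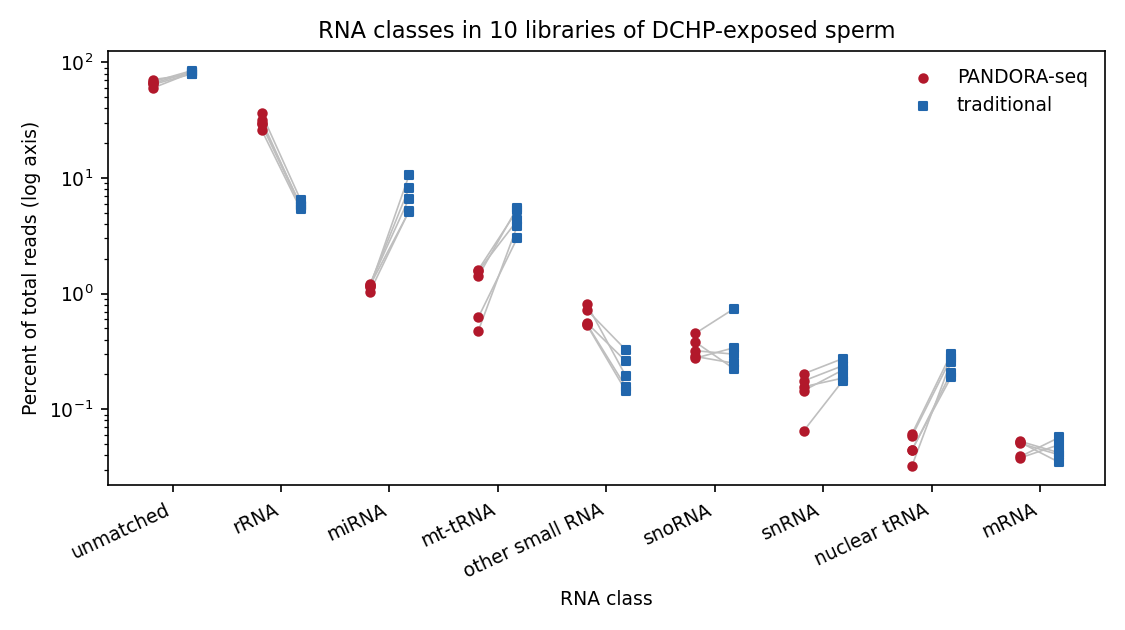
Share of total reads (percent, log axis) of 9 RNA classes in the 10 libraries of DCHP-exposed sperm. Circles are PANDORA-seq libraries, squares are traditional libraries, and grey lines join libraries with the same replicate number. The rRNA share is 26.1% to 36.2% in circles and 5.38% to 6.46% in squares, and the miRNA share is 1.04% to 1.21% and 5.12% to 10.5%.

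Gene by gene, most small RNAs held a smaller part of the PANDORA-seq libraries. Of 1117 genes tested, 121 (10.8%) were higher and 700 (62.7%) lower in PANDORA-seq at an adjusted p below 0.1 and a fold above 2 (edgeR), 73.5% in either direction, and the median log2 difference was -1.86. Where at least 50% of a gene's reads matched that gene alone, 76 of 625 genes (12.2%) were higher and 382 (61.1%) lower. These directions are relative to total reads: with TMM scaling 289 genes were higher and 514 lower, and per miRNA read 518 were higher and 399 lower, with medians of -0.61 and 0.74. A gene could enter the test through its reads in 1 method alone, so counts of genes are a description of those tested.

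**Figure D2:**
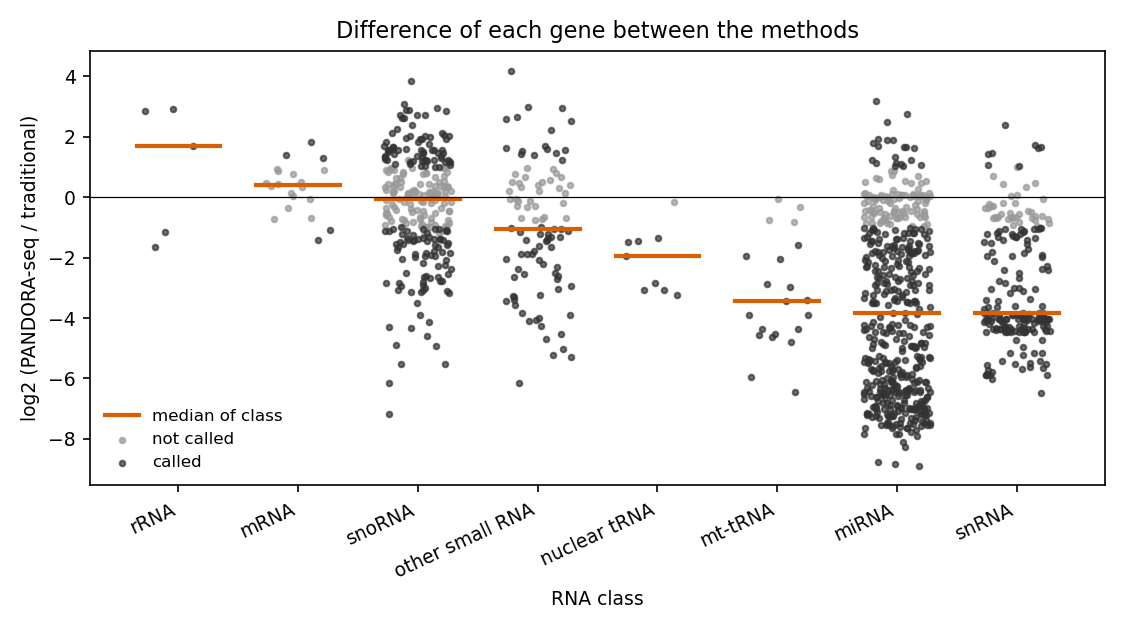
Log2 ratio of PANDORA-seq to traditional libraries of each of the 1117 genes tested, by RNA class. Dark points passed the test, grey points did not, and the orange line is the median of the class. The miRNA and snRNA medians lie at -3.82 and -3.84, the snoRNA median at -0.07 and the rRNA median at 1.70.

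Of 495 miRNA hairpins tested, 379 were lower and 20 higher in PANDORA-seq, beside 62.7% and 10.8% of all genes, and their median log2 difference was -3.82, beside -1.86 for all genes. Of 207 hairpins with at least 50% of their traditional reads at 20 to 24 nt, 205 were lower and 0 higher (median -6.51). Of the 288 other hairpins, 174 were lower and 20 higher (median -1.60). A read that matched a hairpin and another class equally well was counted for the hairpin.

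Mir148a (chromosome 6, 51269812 to 51269910), the hairpin of a miRNA found in many tissues, had the most traditional reads among them. It was read at 27.4, 47.5, 54.3, 131 and 243 RPM in PANDORA-seq replicates 1 to 5 and at 8745, 6911, 11624, 17515 and 17331 RPM in traditional replicates 1 to 5. In both methods replicates 4 and 5 were above the other libraries, while the methods lay far apart (log2 difference -6.95, SE 0.71, edgeR adjusted p = 1.18e-06, and -7.58 without PANDORA-seq replicate 5). The 21 nt read of miR-148a-3p alone fell from 10523 RPM to 86.5 RPM (log2 difference -6.93, and -7.52 without PANDORA-seq replicate 5).

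The miR-10 hairpins lie in Hox clusters, whose genes pattern the body axis. Mir10a was read at 52.3, 48.3, 41.3, 89.4 and 89.5 RPM in PANDORA-seq and at 7257, 5716, 8277, 10341 and 9566 RPM in traditional libraries. The groups did not overlap, and the log2 difference was -7.00 (SE 0.41, edgeR adjusted p = 3.15e-08). Mir10b, with the same seed, differed by -7.23 (SE 0.44).

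let-7 miRNAs, a large family that rises as cells differentiate, were all lower: 14 of 14 tested, with a median log2 difference of -7.08. Beside them, 62.7% of all genes and 205 of 207 hairpins with mainly 20 to 24 nt traditional reads were lower. Copies of let-7a, let-7c and let-7f share nearly all their reads, so the 14 hairpins are fewer separate cases. Their summed level was 31 to 304 RPM in PANDORA-seq and 5881 to 31093 RPM in traditional libraries. Mirlet7f-2 was read at 10.1, 10.8, 3.82, 10.9 and 29.7 RPM in PANDORA-seq and at 1896, 1610, 1216, 2589 and 4709 RPM in traditional libraries. Replicate 5 was the highest and replicate 3 the lowest in each method.

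The other families moved the same way, beside 62.7% of all genes and 205 of 207 hairpins with mainly 20 to 24 nt traditional reads lower. All 6 miR-30 members tested were lower (median -7.38), as were all 6 of miR-17-92 and miR-106b-25 (median -6.12), a cluster known for driving cell division. All 6 of the miR-99, miR-100 and miR-125 group, all 6 of miR-23, miR-27 and miR-24, and all 5 of miR-26 and miR-29 were lower, with medians of -6.80, -6.60 and -7.47. The 3 tested members of the germ cell group of miR-34 and miR-449, which are abundant in meiotic and later male germ cells, were lower too, led by Mir34c at 0.718 to 5.53 RPM against 125 to 407 RPM (log2 difference -6.91, SE 0.71, and -7.68 without PANDORA-seq replicate 5). Mir881, from a testis-expressed cluster on the X chromosome, stood at 3, 3.39, 3.50, 5.13 and 21.0 RPM in PANDORA-seq and at 1846, 736, 2090, 1654 and 1984 RPM in traditional libraries (log2 difference -7.85, SE 0.75). Replicate 5 stood above the other PANDORA-seq libraries, and without it the difference was -8.79. Mir182 and Mir183, of a sensory cell cluster, differed by -7.78 and -7.72.

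miRNAs that mark other cell types were lower as well, beside 62.7% of all genes and 205 of 207 hairpins with mainly 20 to 24 nt traditional reads. All 5 members of the miR-200 family, which marks epithelium such as that of the epididymis, were lower (median -6.65), and their summed level was 3.95 to 42.8 RPM against 815 to 4430 RPM. All 5 muscle hairpins tested were lower (median -7.16). The largest fall of any gene above 10 RPM on average over the 10 libraries was that of Mir1a-2 and Mir1a-1, muscle hairpins that share nearly all their reads, at -8.83 (SE 0.64) and -8.77 (SE 0.61). Mir1a-2 was near the lowest measurable level in PANDORA-seq, at 0.0951 to 0.510 RPM, against 48.9 to 166 RPM in traditional libraries. All 6 blood hairpins were lower (median -6.25), of which Mir486 and Mir3107 share nearly all their reads, and Mir122 of liver differed by -6.87 (SE 1.06), or by -7.75 without PANDORA-seq replicate 2. Per miRNA read, none of the miRNAs named here turned its direction. Per miRNA read of 20 to 24 nt, Mir486 lost its call at -0.33 (edgeR adjusted p = 0.443).

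Hairpin reads in PANDORA-seq were mostly not of miRNA size. Reads of 20 to 24 nt made up 12.2% to 19.6% of the hairpin reads in PANDORA-seq and 87.6% to 90.8% in traditional libraries, and the mean length of hairpin reads was 30.1 nt and 21.1 nt. Counted only at 20 to 24 nt, hairpins took 0.182% ± 0.0422 of PANDORA-seq and 6.33% ± 2.02 of traditional libraries, a 34.7-fold difference (exact permutation test, p = 0.00794, n = 5 each). A large part of the PANDORA-seq hairpin reads matched the Mir6240 locus (chromosome 5, 114851948 to 114852064), namely 52.1% ± 10.3 against 1.02% ± 0.464 in traditional libraries. Without that locus, reads counted for hairpins took 0.550% ± 0.114 and 7.06% ± 2.28, a 12.8-fold difference. These still include reads longer than a miRNA. A 27 nt read matched to Gm47276, Gm47285 and Gm47301 averaged 1223 RPM in PANDORA-seq and 8.10 RPM in traditional libraries. A read that matched a hairpin and an rRNA equally well was counted for the hairpin, and the source of such reads was not tested.

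Mir6240 was the hairpin with the most matched reads in PANDORA-seq, at 7031, 5290, 7797, 5461 and 4491 RPM, and it stood at 478, 873, 826, 590 and 526 RPM in traditional libraries. All PANDORA-seq libraries were above all traditional ones (log2 difference 3.19, SE 0.32, edgeR adjusted p = 9.28e-07). Its reads averaged 30.9 nt in PANDORA-seq, and none of the 20000 single reads tested was a 20 to 24 nt read from the 5′ end of its RefSeq mature miRNA. The 32 nt read shown above had 1913 RPM in PANDORA-seq and 21.3 RPM in traditional libraries and differs from the annotated hairpin at 1 base. A 45 nt read that matched nothing in the reference holds this whole read, with the differing base. It averaged 3003 RPM in PANDORA-seq and 123 RPM in traditional libraries. Whether the reads matched to Mir6240 come from the hairpin or from another RNA was not tested. When reads with a mismatch were left out, Mir6240 reversed to -0.65, so its higher level rests on reads that are not an exact copy of the locus.

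Relative to total reads, 18S and 5S rRNA of the cytosolic ribosome rose, and mt-Rnr1 and mt-Rnr2 of the mitochondrial ribosome fell. 28S rRNA was not used here. 18S rRNA (chromosome 17, 39846353 to 39848201), the RNA of the small ribosomal subunit, was read at 234960, 207997, 285075, 217507 and 183039 RPM in PANDORA-seq and at 27244, 31494, 38831, 27676 and 24345 RPM in traditional libraries. The log2 difference was 2.92 (SE 0.26, edgeR adjusted p = 3.18e-07), with no overlap. Replicate 3 was the highest and replicate 5 the lowest in both methods.

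5S rRNA, part of the large subunit, was read at 54504, 78305, 68819, 92737 and 73021 RPM in PANDORA-seq and at 8160, 10589, 8040, 9735 and 13965 RPM in traditional libraries (log2 difference 2.86, SE 0.28, edgeR adjusted p = 8.34e-07). 5.8S rRNA, of the large subunit too, varied more, with 2605, 456, 2442, 1082 and 394 RPM against 446, 392, 649, 416 and 245 RPM. Its groups overlapped, its log2 difference was 1.70 (SE 0.54, edgeR adjusted p = 0.0120), and 98.8% of its PANDORA-seq reads and 95.1% of its traditional reads carried a mismatch to the annotated copies. With exact matches alone the 5.8S difference was -0.65.

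mt-Rnr1, the small rRNA of the mitochondrial ribosome, was read at 2153, 847, 1269, 1184 and 807 RPM in PANDORA-seq and at 3485, 2342, 2651, 3127 and 2340 RPM in traditional libraries (log2 difference -1.16, SE 0.33, edgeR adjusted p = 0.00606). mt-Rnr2, the large one, was read at 7351, 3531, 4241, 4926 and 3474 RPM against 18974, 11900, 14465, 16003 and 12898 RPM (log2 difference -1.66, SE 0.30). In both genes and both methods replicate 1 was the highest, and the groups did not overlap. With TMM scaling the mt-Rnr1 difference was 0.0396 and that of mt-Rnr2 -0.47, neither of them called, and per miRNA read they were 1.34 and 0.84, so the fall depends on the scale.

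A single 30 nt fragment of 18S rRNA varied widely between the PANDORA-seq libraries. The read shown above from bases 1034 to 1063 took 5.67%, 1.96%, 10.5%, 3.62% and 1.59% of all PANDORA-seq reads in replicates 1 to 5, and 0.161%, 0.244%, 0.214%, 0.0652% and 0.0303% of traditional reads (log2 difference 5.03, SE 0.76, edgeR adjusted p = 2.85e-05). Without it, 18S rRNA took 16.7% to 18.8% of PANDORA-seq libraries and 2.40% to 3.67% of traditional ones. The spread of 18S rRNA between PANDORA-seq libraries was 3.81 percentage points with the fragment and 0.769 without it (SD, n = 5). The 17 nt read at the 5′ end of 18S rRNA went the other way, from 376 RPM in traditional libraries to 133 RPM in PANDORA-seq (log2 difference -1.50, SE 0.54). Of the 4960 rRNA sequences among the 20000 single reads tested, 3098 were higher and 1302 lower, where 47.1% of all sequences were higher and 42.1% lower, 89.1% in all.

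**Figure D3:**
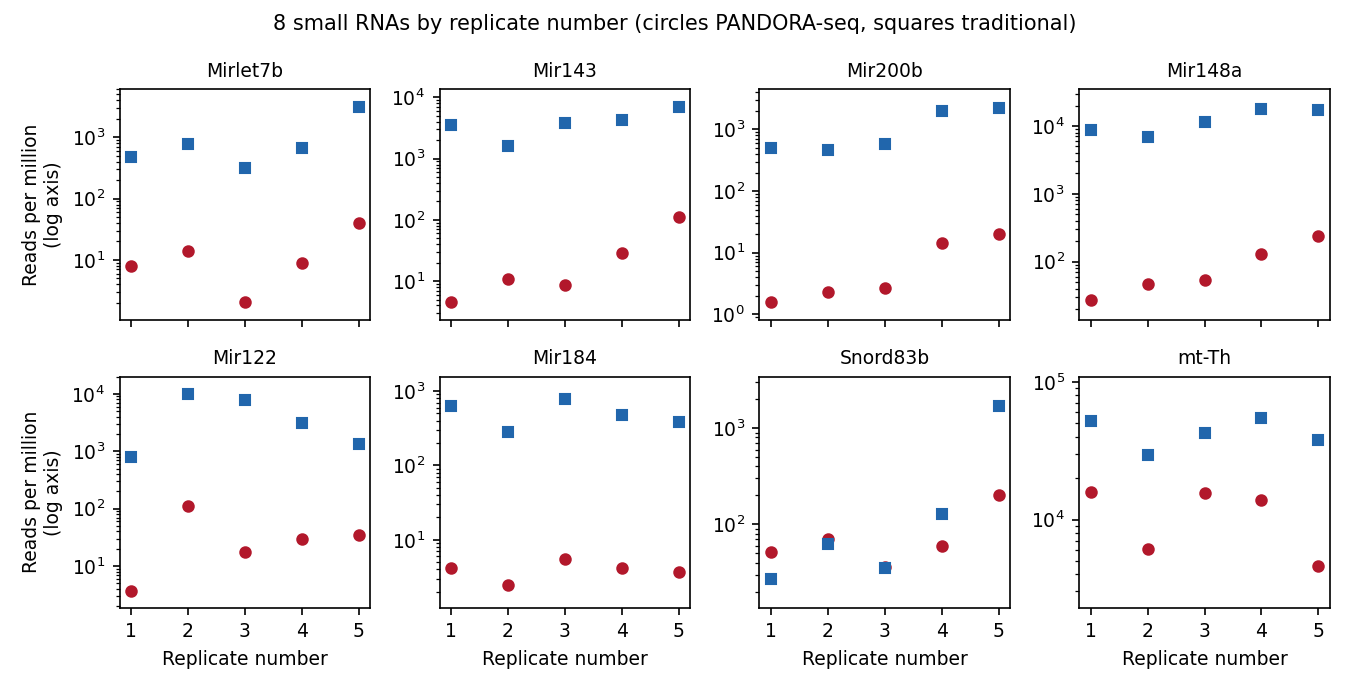
Level (RPM, log axis) of 8 small RNAs in each library by replicate number. Circles are PANDORA-seq and squares are traditional libraries. For Mirlet7b the circles and squares follow the same order of libraries, from 2.08 to 40.7 RPM and from 320 to 3052 RPM, while Snord83b reaches 1716 RPM in traditional replicate 5 against 27.2 to 127 RPM in the other traditional libraries.

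Relative to total reads, tRNA-matched reads fell in PANDORA-seq, and no tRNA gene tested rose. Of 21 mitochondrial tRNAs tested, 17 were lower and 0 higher (median log2 difference -3.44), and of 9 nuclear tRNA genes 8 were lower and 0 higher, beside 62.7% and 10.8% of all genes. The nuclear genes are a small part of the nuclear tRNAs, since the reference held 10 of 408 loci, and say nothing of the rest.

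mt-Th (mitochondrial chromosome, 11546 to 11612), the tRNA that carries histidine, made up 97.9% of the mitochondrial tRNA reads in PANDORA-seq and 97.6% in traditional libraries. It was read at 15913, 6099, 15524, 13917 and 4565 RPM in PANDORA-seq and at 52083, 29206, 42180, 54628 and 37715 RPM in traditional libraries. All PANDORA-seq libraries lay below all traditional ones (log2 difference -1.95, SE 0.39, edgeR adjusted p = 0.000546). The reference sequence of mt-Th was given 2 extra G at its 5′ end, which the reads carry, and without them the difference was 0.22. With TMM scaling it was -0.73 and not called (edgeR adjusted p = 0.135). The other mitochondrial tRNAs together fell from 0.0996% ± 0.0126 to 0.0188% ± 0.00382 (exact permutation test, p = 0.00794, n = 5 each).

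Within mt-Th, fragments went in opposite directions. The 42 nt read that starts in the added G was at 614, 273, 355, 620 and 327 RPM in PANDORA-seq and at 17389, 9740, 13059, 17511 and 11382 RPM in traditional libraries (log2 difference -4.98, SE 0.46, edgeR adjusted p = 4.51e-07). The 37 nt read from base 7 to base 43 was at 124, 193, 624, 897 and 103 RPM in PANDORA-seq and at 0.557, 0.510, 5.17, 43.0 and 0.433 RPM in traditional libraries (log2 difference 5.29, SE 1.37, edgeR adjusted p = 0.00243). Replicate 4 was the highest library of the shorter read in each method, and without traditional replicate 4 the difference was 7.85. Of 619 mitochondrial tRNA sequences tested, 378 were lower and 99 higher, beside 42.1% and 47.1% of all 20000.

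The mitochondrial tRNAs with the largest falls, named after their values were seen, were mt-Tw (tryptophan), mt-Ts1 (serine) and mt-Ti (isoleucine), with log2 differences of -6.45, -5.96 and -4.81. With TMM scaling these were -5.23, -4.74 and -3.58. Per miRNA read of 20 to 24 nt they were -1.41, -0.82 and 0.20, and none was called. mt-Tw was near the lowest measurable level in PANDORA-seq, at 0 to 0.569 RPM, against 4.23 to 36.2 RPM in traditional libraries, and its difference was -7.95 without PANDORA-seq replicate 2 and -5.64 without traditional replicate 2, its highest libraries. mt-Ts1 averaged 2.42 RPM in PANDORA-seq and 151 RPM in traditional libraries. mt-Tr (arginine), with 3.71 ± 0.650 RPM and 3.90 ± 0.789 RPM (n = 5 each), was among the 4 that did not pass the test (log2 difference -0.08, SE 0.24), but with TMM scaling it was called higher at 1.18.

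Among nuclear tRNAs, n-TSgct5 (chromosome 13, 22050686 to 22050767), a serine tRNA, was read at 97.7, 201, 72.0, 178 and 295 RPM in PANDORA-seq and at 570, 687, 588, 626 and 782 RPM in traditional libraries (log2 difference -1.95, SE 0.39, edgeR adjusted p = 0.000500). It was not called with TMM scaling (-0.73) or the size factors of DESeq2 (-0.44), and was 0.62 per miRNA read. Its 5′ fragment of 23 nt fell further, from 224 RPM to 3.39 RPM (log2 difference -6.04, SE 0.42). The serine tRNAs n-TSaga9 and n-TStga1, which share nearly all their reads, both differed by -3.08 (SE 0.31), and per miRNA read by -0.49, which was not called (edgeR adjusted p = 0.129). n-TPtgg2, a proline tRNA, differed by -1.34 (SE 0.38), but by -0.08 with TMM scaling. Its reads averaged 17.9 nt and 17.0 nt, and with reads of 18 to 45 nt alone the difference was 0.00930. Of its reads, 99.9% in PANDORA-seq and 99.7% in traditional libraries carried a mismatch, so hardly any was an exact copy of the gene. In PANDORA-seq 20 to 24 nt reads made up 12.5% ± 1.91 of nuclear tRNA reads, against 60.4% ± 13.8 in traditional libraries (exact permutation test over 60 class and length windows, adjusted p = 0.0140, n = 5 each).

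Small RNAs of the nucleus and of the secretory pathway did not move as a block. Of 265 snoRNA genes tested, 71 were higher and 81 lower, beside 10.8% and 62.7% of all genes, with a median log2 difference of -0.07 against -1.86 for all genes. Box C/D snoRNAs, which guide 2′-O-methylation, had 23 higher and 25 lower of 77, and box H/ACA snoRNAs, which guide pseudouridylation, had 8 higher and 13 lower of 31. Snord14c (chromosome 9, 40803583 to 40803668) was read at 243, 271, 145, 141 and 350 RPM in PANDORA-seq and at 35.8, 62.6, 39.4, 59.6 and 154 RPM in traditional libraries (log2 difference 1.71, SE 0.45, edgeR adjusted p = 0.00399). Gm23711, a snoRNA on chromosome 4, had the largest rise of a snoRNA above 10 RPM, from 8.40 ± 2.49 to 61.4 ± 11.5 RPM (log2 difference 2.87, SE 0.30).

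Snord83b, a box C/D snoRNA, rested on a single library. It was read at 51.9, 70.2, 36.2, 60.3 and 201 RPM in PANDORA-seq and at 27.2, 63.0, 35.7, 127 and 1716 RPM in traditional libraries. Its log2 difference was -2.23 (SE 1.08, edgeR adjusted p = 0.0758), it was 0.41 without traditional replicate 5, it lost its call without any of PANDORA-seq replicates 1 to 4 (-2.17 to -2.04), and with the replicate number as a block it was -0.54 (edgeR adjusted p = 0.347). Replicate 5 was the highest in both methods.

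Gm24494 (chromosome 3, 153911610 to 153911690), a snoRNA gene, did not pass the test as a whole, while its fragments did, in opposite directions. The gene was at 119, 69.7, 32.6, 42.0 and 132 RPM in PANDORA-seq and at 124, 108, 80.8, 93.6 and 230.2 RPM in traditional libraries (log2 difference -0.68, SE 0.45, edgeR adjusted p = 0.179). Of its fragments shown above, that of 45 nt rose from 4.74 RPM in traditional libraries to 47.7 RPM in PANDORA-seq, and that of 43 nt, with the same start, fell from 63.1 to 4.596 RPM (log2 differences 3.33 and -3.78, SE 0.60 and 0.53).

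Of 206 snRNA genes 161 were lower and 8 higher, beside 62.7% and 10.8% of all genes, but most of these are near-identical copies that share reads. Where at least 50% of reads were a gene's own, 15 of 19 snRNA genes were lower and 1 was higher, beside 61.1% and 12.2% of all such genes. Rnu12, the U12 RNA of the minor spliceosome, differed by -1.82 (SE 0.55, edgeR adjusted p = 0.00869), and by -0.47 and uncalled with TMM scaling. It was read at 15.4 to 51.8 RPM in PANDORA-seq and at 57.1 to 338 RPM in traditional libraries, and only 5.22% of its reads matched it alone. Traditional replicate 5 was its highest library, and without it the difference was -1.01.

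Rn7s1, a gene of the 7SL RNA of the signal recognition particle, was read at 2017, 2970, 1952, 3248 and 2089 RPM in PANDORA-seq and at 366, 727, 345, 629 and 561 RPM in traditional libraries (log2 difference 2.22, SE 0.33, edgeR adjusted p = 3.48e-05). Replicates 2 and 4 were the highest in both methods. Of the 4 tested genes for RNase P, RNase MRP, 7SK and 7SL RNA, 3 rose and 1 fell, beside 10.8% and 62.7% of all genes. Rpph1, the RNA of RNase P, which trims the 5′ end of tRNA precursors, rose by 2.53 (SE 0.38), and Rn7sk, which holds back the elongation factor P-TEFb, by 1.39 (SE 0.33). Rmrp, the RNA of RNase MRP, fell by 1.30 (SE 0.38), but differed by -0.05 with TMM scaling and by 1.27 per miRNA read. With the size factors of DESeq2 Rmrp differed by 0.26, and per miRNA read of 20 to 24 nt by 3.81. The largest rise above 10 RPM was that of Gm22146, whose reads averaged 15.0 nt, close to the shortest deposited, from 1.65 RPM to 29.6 RPM (log2 difference 4.19, SE 0.65, and 5.19 without traditional replicate 2).

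Y RNAs are small RNAs bound by the Ro protein. Rny1 was read at 19.6, 24.9, 14.7, 22.7 and 45.2 RPM in PANDORA-seq and at 81.2, 87.2, 87.5, 102 and 229 RPM in traditional libraries (log2 difference -2.21, SE 0.42, edgeR adjusted p = 0.000312), a difference of -0.93 and under the fold of 2 with TMM scaling. Rny3 was at 28.1, 48.8, 16.2, 25.8 and 113 RPM and at 20.2, 31.8, 32.6, 29.4 and 70.1 RPM and did not pass the test (log2 difference 0.33, SE 0.52), but was called at 1.60 with TMM scaling. Replicate 5 was the highest library of both genes in both methods.

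Of 7 spermatid and sperm mRNAs, 2 were lower and 0 higher, beside 62.7% and 10.8% of all genes. Smcp, a protein of the sperm mitochondrial capsule, fell from 204 ± 59.3 RPM to 76.2 ± 11.8 RPM (log2 difference -1.42, SE 0.30), but the difference was -0.24 with TMM scaling (edgeR adjusted p = 0.498), 0.0380 with the size factors of DESeq2 and 1.07 per miRNA read. Tnp2, a transition protein of condensing chromatin, had 13.6 ± 1.32 RPM in traditional libraries and 6.35 ± 1.01 RPM in PANDORA-seq, and with TMM scaling its difference was 0.12 and not called. Prm2, a protamine that packs sperm DNA, had 41.5 ± 17.5 and 37.6 ± 11.6 RPM (log2 difference 0.14, SE 0.34), and was called at 1.36 with TMM scaling. Without PANDORA-seq replicate 5 the Prm2 difference was -0.11. Of 13 mitochondrial mRNAs 3 were higher and 0 lower, beside 10.8% and 62.7% of all genes, namely mt-Cytb, mt-Co2 and mt-Nd6, at 1.84, 1.38 and 1.29. Traditional replicate 2 was the highest traditional library for 12 of the 13, and without it mt-Cytb differed by 2.52. mt-Nd6 was not called when sequences read once were left out (0.47). mt-Co1 missed the test at 0.42 (SE 0.54), with 47.2 to 63.7 RPM in PANDORA-seq and 14.9 to 118 RPM in traditional libraries, and it was called at 1.36 without traditional replicate 2, its highest library.

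PANDORA-seq reads were longer. The mean length was 33.1 ± 0.998 nt in PANDORA-seq and 29.6 ± 0.427 nt in traditional libraries, and reads of 37 to 45 nt took 30.5% ± 5.20 and 10.9% ± 1.58 of the libraries. Of 31 read lengths, 12 were higher and 11 lower in PANDORA-seq (exact permutation tests, 74.2% of the lengths at an adjusted p below 0.05, 0 by the sign-flip test of pairs, which cannot pass). The lengths from 35 to 41 nt and from 43 to 45 nt were higher, together with 23 and 24 nt. Those of 15 to 17, 20, 21, 27 to 29, 31, 32 and 34 nt were lower.

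The largest relative gain was at 45 nt, the end of the measured range, from 0.506% ± 0.176 to 2.83% ± 0.762, 5.60-fold. On average, the most frequent PANDORA-seq length was 36 nt, with 8.79%, 12.0%, 9.43%, 11.03% and 12.8% of reads in replicates 1 to 5, against 3.73%, 4.72%, 2.98%, 4.28% and 5.91% in traditional libraries. A fragment of 5S rRNA made up 38.0% ± 9.65 of the 36 nt reads in PANDORA-seq. In traditional libraries 73.3% ± 3.95 of them were a sequence that matched nothing in the reference. That unmatched sequence was frequent in both methods, at 37282 ± 15270 RPM in PANDORA-seq and 31876 ± 9373 RPM in traditional libraries. Its log2 difference of 0.23 (SE 0.40) did not pass the test. The 5S fragment averaged 40510 RPM in PANDORA-seq and 986 RPM in traditional libraries.

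On average, the most frequent traditional length was 29 nt, with 16.1%, 12.1%, 13.5%, 15.2% and 9.08% of reads, against 3.03%, 2.46%, 3.92%, 3.10% and 2.31% in PANDORA-seq. It was led by an unmatched sequence with 37.7% ± 4.12 of the traditional reads of that length, which fell from 50511 RPM to 1041 RPM (log2 difference -5.60, SE 0.50). At 21 nt, within the miRNA size range, the share was 4.65% ± 1.33 in traditional and 1.43% ± 0.415 in PANDORA-seq libraries, and the leading traditional read was the miR-148a-3p read, with 22.2% ± 4.03. The 24 nt length ran the other way, 1.32% ± 0.269 against 2.82% ± 0.207 in PANDORA-seq, where a single unmatched sequence held 45.7% ± 5.34 of its reads.

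The 30 nt length did not pass the test as a whole, with 8.29% ± 4.09 in PANDORA-seq and 11.9% ± 1.24 in traditional libraries (exact permutation test, adjusted p = 0.132). It was led by the 18S fragment shown above in PANDORA-seq and by an unmatched sequence in traditional libraries.

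**Figure D4:**
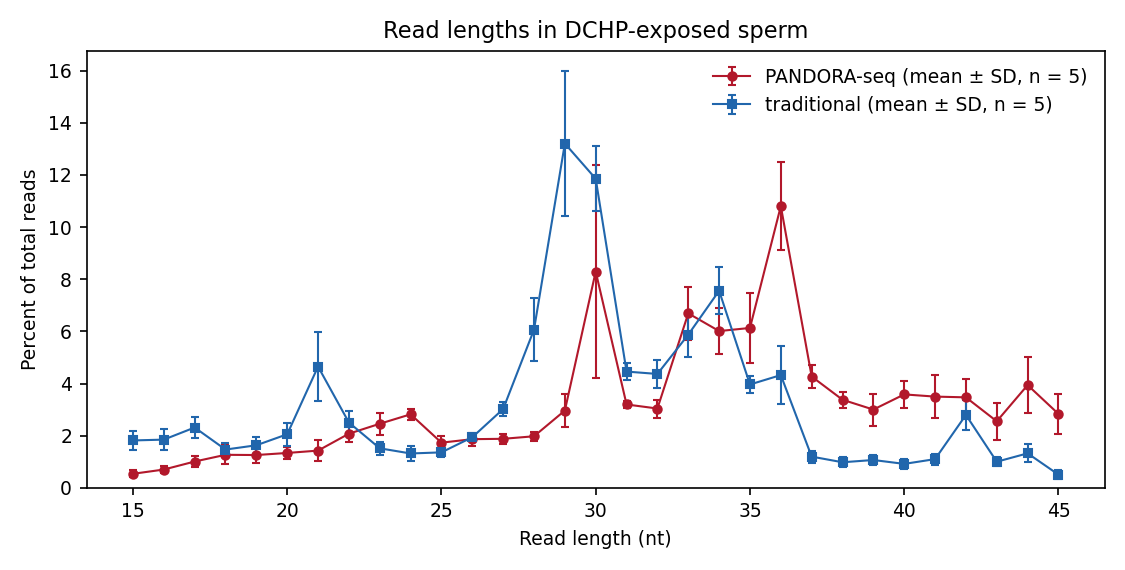
Share of total reads (percent) at each read length from 15 to 45 nt. Points are means of 5 libraries and bars are SD, with circles for PANDORA-seq and squares for traditional libraries. The traditional peak is at 29 nt (13.2%) and the PANDORA-seq peak at 36 nt (10.8%), and the PANDORA-seq line has its widest bar at 30 nt (SD 4.09).

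Reads with a mismatch to their gene were less frequent in PANDORA-seq for several classes. AlkB is known to act on methylated bases at which reverse transcriptase stops or miscopies, and whether it set these shares was not tested. For mitochondrial tRNA it was 12.0% ± 0.819 in PANDORA-seq and 30.7% ± 1.39 in traditional libraries, and for snoRNA 8.69% ± 0.244 and 17.1% ± 2.11. For the nuclear glycine tRNA n-TGccc7 it was 8.68% ± 0.892 and 41.6% ± 3.26, and for the arginine tRNA n-TRtcg5 9.47% ± 1.42 and 35.02% ± 6.60. Each of these had no overlap between the methods (exact permutation test, adjusted p = 0.0131). Nuclear tRNA as a class did not differ, with 33.1% ± 5.27 and 29.4% ± 4.96 (exact permutation test, adjusted p = 0.367). Among its other genes n-TSaga9 and n-TStga1 were lower in PANDORA-seq and n-TPtgg2 was higher. n-TItat14, n-TRtct2, n-TRtct4 and n-TSgct5 did not pass the test. miRNA hairpins went the other way, with 58.7% ± 9.08 and 14.2% ± 1.78, and rRNA overlapped, with 31.96% ± 12.4 and 26.6% ± 2.67 (exact permutation test, adjusted p = 0.0131 and 0.434). Mir6240, whose higher level rests on reads with a mismatch, gave 52.1% ± 10.3 of the PANDORA-seq hairpin reads. Among rRNAs, 5S (6.70% and 12.3%), mt-Rnr1 (10.5% and 18.1%) and mt-Rnr2 (11.5% and 17.8%) were lower in PANDORA-seq without overlap (exact permutation test, adjusted p = 0.0131). 18S overlapped (39.9% and 35.5%), and 5.8S was higher (98.8% and 95.1%). The 18S share includes the capital base of the 30 nt fragment shown above, which differed in 99.99% of PANDORA-seq and 99.98% of traditional reads over it. In PANDORA-seq replicates 1 to 5 the 18S share was 46.5%, 26.5%, 60.9%, 38.3% and 27.0%. That fragment was 24.1%, 9.43%, 36.8%, 16.6% and 8.69% of their 18S reads.

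Single positions were counted from the annotated first base of each gene. At mt-Th the substitution A8T was found in 1.76% ± 0.342 of PANDORA-seq and 16.5% ± 1.92 of traditional reads over that base, never at the last base of a read. At mt-Rnr1 T533C was found in 0.287% ± 0.106 and 17.6% ± 2.45, and at mt-Th C43A in 0.450% ± 0.339 and 12.0% ± 4.14, both only in the last base of a read. At 18S rRNA A102G was found in 0.00199% ± 0.00445 and 7.71% ± 2.93. The methods did not overlap at any of these positions (exact permutation test, adjusted p = 0.0102). Other 18S positions carried the same substitution in all reads of both methods to within 0.1%, namely C180G, T1051G, A1106G and T1758C, as a difference of the annotated copy from the reads.

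Next, the order of the 5 replicate numbers was compared between the methods, gene by gene, for 332 genes with at least 50 reads in each of the 10 libraries. Of the 10 pairs of numbers a gene has, the median gene kept 6 in the same order. All 10 pairs were kept by 16 genes (4.82%), and at least 8 by 93 genes (28.01%), while 19 genes kept 2 or fewer. Per miRNA read the median was 5 pairs, and 7 genes (2.11%) kept all 10, while per miRNA read of 20 to 24 nt the median was 6 pairs, and 15 genes (4.52%) kept all. As 5 libraries can stand in 120 orders, a given order is 1 in 120 (0.833%). Genes of a library share its depth and composition, and several share reads, so these counts are a description.

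**Figure D5:**
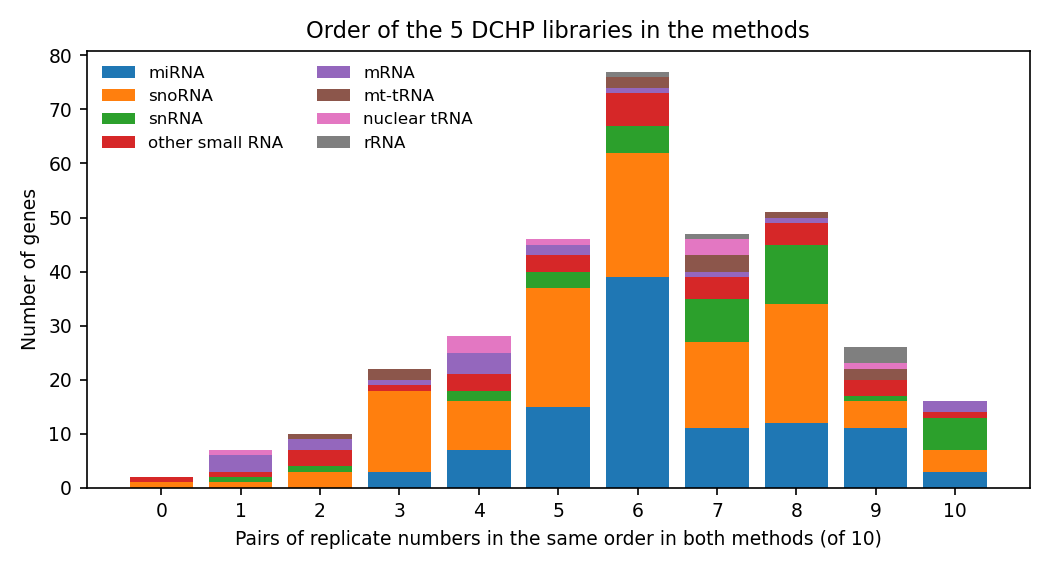
Number of genes (bars, stacked by RNA class) by how many of the 10 pairs of replicate numbers stand in the same order in PANDORA-seq and in traditional libraries of DCHP-exposed sperm. The bar at 6 pairs is the tallest, with 77 of 332 genes, and the bar at 10 pairs holds 16.

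Of the genes that kept all 10 pairs, 15 also had a highest library at least 1.5 times the lowest in both methods. None of these 15 kept all 10 pairs per miRNA read, where they kept 7 to 9. Per miRNA read of 20 to 24 nt they kept 7 to 10, and Mirlet7b and Mir184 were the 2 that kept all. Mirlet7b had the widest range of them, with 7.82, 14.0, 2.08, 9.08 and 40.7 RPM in PANDORA-seq and 485, 781, 320, 669 and 3052 RPM in traditional libraries, the order 5, 2, 4, 1, 3 in each. Its highest library was 19.6 times the lowest in PANDORA-seq and 9.53 times in traditional libraries. Mir184, a miRNA known from epithelia and testis, had 4.14, 2.43, 5.46, 4.12 and 3.67 RPM and 633, 277, 783, 482 and 388 RPM, with replicate 3 highest and replicate 2 lowest. Mir465b-1, of the X-linked testis cluster, had 6.35, 4.31, 5.10, 4.52 and 11.6 RPM and 710, 388, 603, 571 and 1068 RPM, with replicate 5 highest and replicate 2 lowest.

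Prm2 mRNA fragments kept their order as well, at 48.9, 28.1, 23.998, 38.7 and 67.7 RPM and 39.3, 31.3, 26.4, 34.6 and 56.6 RPM. Among RNAs of the nucleus the same was seen for the snoRNA Gm24494, for Scarna17, a Cajal body RNA, for Gm23650 and for the snoRNA-class reads at Mir3068, and Gm25687 of the other small RNAs did so too. The 6 snRNA genes Gm23849, Gm26316, Gm25813, Gm25202, Gm25189 and Gm26110 completed the 15. The first 4 of these snRNA genes share their reads and had the order 1, 5, 4, 2, 3, and the last 2 the order 5, 2, 1, 4, 3, so they are not separate cases.

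By class, the median number of kept pairs was 9 for the 5 rRNA genes, 7 for 38 snRNA and for 11 mitochondrial tRNA genes, 6 for 101 miRNA and for 121 snoRNA genes, 5 for 9 nuclear tRNA genes and 4 for 17 mRNAs. Of the miRNAs, among others, Mirlet7f-2, Mirlet7g, Mir10b, Mir200b and Mir25 kept 9 pairs. Mir200b stood at 1.61, 2.34, 2.70, 14.1 and 20.1 RPM in PANDORA-seq and at 497, 469, 575, 1970 and 2264 RPM in traditional libraries, so that replicates 4 and 5 stood above the others in both. The highest library was the same in both methods for 154 of 332 genes, among them 60 of 101 miRNAs, and the lowest for 88. Replicate 5 was the highest library of 173 genes in PANDORA-seq and of 184 in traditional libraries. Without replicate 5, 26 of 335 genes kept all 6 remaining pairs.

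The order was turned around in 2 genes, named after their values were seen. Gm22744, a snoRNA, kept 0 pairs, with 5.09, 1.68, 4.05, 3.07 and 2.45 RPM in PANDORA-seq and 1.53, 4.77, 1.94, 2.93 and 3.93 RPM in traditional libraries. Gm26461 kept 0 pairs as well, with 224 to 345 RPM and 142 to 450 RPM. As shares of whole classes, rRNA and snRNA kept 9 of 10 pairs, other small RNA 8, both tRNA classes 7, miRNA, snoRNA and unmatched reads 5, and mRNA 3. The miRNA class includes the reads matched to Mir6240. Without them its share was 0.472%, 0.511%, 0.427%, 0.645% and 0.694% in PANDORA-seq replicates 1 to 5. In traditional libraries it was then 5.08%, 5.09%, 6.55%, 8.09% and 10.5%, so replicates 4 and 5 were the highest in both methods.

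In control sperm rRNA was higher and miRNA lower in PANDORA-seq by folds close to those in DCHP-exposed sperm. The ratio of PANDORA-seq to traditional share was 5.19 for rRNA and 0.158 for miRNA in controls, against 5.28 and 0.162 in DCHP-exposed sperm. It was 0.103 and 0.258 for mitochondrial tRNA, and 5.10 and 2.94 for other small RNA. Of 1021 genes tested in both exposures, 924 (90.5%) had the same sign, and 653 passed the test in the same direction in both. In a fit of all 19 libraries, the difference between methods did not pass the test of change with exposure for any of 1351 genes (0.0%, edgeR, lowest adjusted p = 0.601), with 53 genes at an unadjusted p below 0.05 and 0 called by DESeq2. The lowest p was that of Gm27921, with a log2 change of -2.87 (SE 0.68) of the method difference.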

How the data were processed

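Small RNA of sperm was sequenced by PANDORA-seq (RNA treated with T4PNK and AlkB) and by a traditional library, both with the NEBNext kit. The authors deposited raw counts, listing each distinct cleaned read of 15 to 45 nt in a library with how often it was read, and neither annotated nor scaled them. The settings of adapter removal are not given in the sources used here, and the submitters' processing notes name mm10.

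Reads were matched to small RNA genes, rRNAs, tRNAs and chosen mRNAs of GENCODE vM21 (GRCm38), in sense orientation and allowing 1 mismatch, and each read went to its fewest mismatches and then to a class in the order miRNA, rRNA, mitochondrial tRNA, nuclear tRNA, snoRNA, snRNA, other small RNA, mRNA. Reads of several genes were split equally. The 28S and 45S rRNAs and most nuclear tRNAs were not used here. Members, gene lists and the 2 G added to mt-Th were chosen with earlier results of these data known.

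Genes with at least 10 reads in at least 5 of the 10 libraries, and the 20000 sequences with the most reads, were fitted in edgeR 4.0.16 (R 4.3.3) by its quasi-likelihood method, with total reads as library size. A gene was called at a fold above 2 and a p below 0.1 after Benjamini-Hochberg adjustment. Shares of classes and lengths were compared with exact permutation tests (Python 3.11.15) at an adjusted p below 0.05. A replicate block, DESeq2 1.42.0, other scalings, filters, matching rules and left-out libraries were the alternatives. Symbols of 4 listed miRNAs were replaced by those of RefSeq. Named genes were the 5 with the most reads of each class, the 5 with the largest called difference in each direction above 10 RPM, the leading gene of each list, and genes with the same library order in both methods whose highest library was at least 1.5 times the lowest. Other genes named here were chosen after their values were seen.

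On simulated counts of 1117 genes with 200 changed 4-fold, edgeR recovered 98.5% of the changed genes, and 7.94% of its calls were false. Over 20000 simulated sequences it recovered 41% of the 200 changed 4-fold and 100% of those changed 16-fold. Libraries of 1 method differed beyond sampling noise in all 20 pairs (smallest chi-square per degree of freedom 95.1). The replicate numbers were taken to pair the libraries, from the data alone: deviations from the method means correlated between libraries of the same number with r of 0.133 to 0.331 in all 5 pairs over 1117 genes, and of other numbers with r of -0.210 to 0.212. Over the 332 genes with at least 50 reads, r was -0.0583 to 0.438, with replicate 4 below 0. The study describes its replicates as biological, from mice, but the labels name no animals and do not say how many went into a library, so p-values measure the spread between these libraries. Depths of 21588335 to 47331215 reads limit counting error only.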

Additional observations from a re-analysis of the deposited data

Results flagged for a closer look

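In 17 of 182 groups of 5 libraries tested, the highest or lowest library stood apart from the others by more than Dixon's 95% limit, where chance marks about 1 in 20 groups. Traditional replicate 5 was the high library in 8 of them.

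In traditional replicate 5, snoRNA took 0.742% of reads, while the next library had 0.341%, and 23 nt reads took 1.96%, while the next library had 1.49%. The same library had 1716 RPM of Snord83b (next 127), 338 RPM of Rnu12 (next 80.9), 229 RPM of Rny1 (next 102), 70.1 RPM of Rny3 (next 32.6), 154 RPM of Snord14c (next 62.6) and 230.2 RPM of Gm24494 (next 124). In PANDORA-seq, replicate 5 was the high library for Snord83b at 201 RPM (next 70.2), Mir881 at 21.0 RPM (next 5.13), Mirlet7f-2 at 29.7 RPM (next 10.9) and Mir143 at 111 RPM (next 29.2). Snord83b stood apart in replicate 5 of both methods.

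Replicate 2 was high for Mir122 in PANDORA-seq, at 111 RPM (next 34.1), and for Gm22146 and mt-Co1 in traditional libraries, at 5.003 RPM (next 1.45) and 118 RPM (next 36.2). Traditional replicate 2 also had the most Mir122 of its method, 10008 RPM. Traditional replicate 3 was the low library for 43 nt reads, with 0.718% (next 1.03%), and for 44 nt reads, with 0.713% (next 1.38%). What set these libraries apart was not tested.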

How the results depend on the processing

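Limits: values are shares of total reads, the reference left 65.8% and 81.6% of reads unmatched, and directions near 0 depend on the scale. The replicate block, as an exact sign-flip test of 5 pairs, cannot go below 0.0625. Under the block the class folds stay 0.162 (miRNA), 5.28 (rRNA), 0.258 (mitochondrial tRNA), 0.196 (nuclear tRNA), 2.94 (other small RNA) and 0.807 (unmatched) but miss the threshold, and 0 lengths are higher and 0 lower. In the edgeR fit with the block 132 genes were higher and 686 lower, 802 genes were called with and without it, and of 51 named genes Snord83b alone lost its call. Except where given here or in the report, named genes whose difference is given and the sequences shown kept their direction under the alternatives run.

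With exact matches the snoRNA fold was 1.02, 5.8S rRNA -0.65 and Mir6240 -0.65 (log2 difference), and 121 genes were higher and 533 lower. On log2 shares the snoRNA fold was 1.01. With at least 2 reads per sequence the mRNA fold was 0.990. Without the 2 added G, an alternative chosen after seeing the data, the mitochondrial tRNA fold was 0.942 and the mt-Th difference 0.22. With reads of 18 to 45 nt n-TPtgg2 was at 0.00930. Leaving out a library gave folds of 0.621 to 0.778 for snRNA, which passed the threshold without PANDORA-seq replicate 5 (0.621) or traditional replicate 3 (0.650), 0.841 to 1.23 for snoRNA and 0.983 to 1.12 for mRNA, both highest or lowest without traditional replicate 5, and 107 to 137 genes higher and 673 to 714 lower. Without PANDORA-seq replicate 5 Rny3 was at -0.31 and Gm25506 at -0.0566, and without traditional replicate 5 Snord83b was at 0.41, over ranges of -0.31 to 0.70 for Rny3 and -2.85 to 0.41 for Snord83b. Without PANDORA-seq replicate 1 Gm25813 was called at -1.04, and without traditional replicate 5 Gm26202 lost its call at -0.97.

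Scaling moved the balance of calls. TMM gave 289 genes higher and 514 lower (35.99% of calls higher, against 14.7% with total reads). TMM differences were 0.0396 for mt-Rnr1, 0.11 for Gm26202, 0.56 for Gm24494, 0.47 for Gm23849, 0.48 for Gm26316 and 0.40 for Gm25813. TMM ended the calls of mt-Rnr2 (-0.47), mt-Th (-0.73), n-TSgct5 (-0.73), n-TPtgg2 (-0.08), Rny1 (-0.93), Snord83b (-0.72), Gm25202 (-0.26), Rnu12 (-0.47) and Smcp (-0.24), and it called Rny3 (1.60), Gm25506 (1.38), Gm26461 (1.45), Gm24514 (1.61), Gm23153 (1.70) and mt-Co1 (1.66). DESeq2 with its own size factors gave 333 higher and 492 lower (40.4%), and 0.32 for mt-Rnr1, 0.26 for n-TPtgg2, 0.40 for Gm26202, 0.84 for Gm24494, 0.74 for Gm23849, 0.75 for Gm26316, 0.67 for Gm25813, 0.0017 for Gm25202 and 0.0380 for Smcp. It ended the calls of mt-Rnr2 (-0.19), mt-Th (-0.45), n-TSgct5 (-0.44), Rny1 (-0.65) and Rnu12 (-0.19), and called Rny3, Gm25506, Gm26461, Gm24514 and Gm23153 (1.66 to 2.08). DESeq2 with total reads gave 122 and 696. These scalings moved the median of all genes from -1.86 to -0.61 and -0.30. Without a filter on low counts 148 genes were higher and 2226 lower.

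Per miRNA read, 518 genes were higher and 399 lower (56.5%), and the class folds were 1.47 (mitochondrial tRNA), 1.16 (nuclear tRNA), 5.96 (snoRNA), 3.97 (snRNA), 5.77 (mRNA) and 4.62 (unmatched). This scale counts all hairpin reads, of which 52.1% in PANDORA-seq and 1.02% in traditional libraries matched Mir6240. The differences were 1.34 for mt-Rnr1, 0.84 for mt-Rnr2, 0.56 for mt-Th, 0.62 for n-TSgct5, 1.18 for n-TPtgg2, 0.47 for Rny1, 1.45 for Gm26202, 0.87 for Snord83b, 1.94 for Gm24494, 1.81 for Gm23849, 1.81 for Gm26316, 1.74 for Gm25813, 1.08 for Gm25202, 0.94 for Rnu12 and 1.07 for Smcp, and n-TSaga9 and n-TStga1 lost their calls at -0.49. Per miRNA read of 20 to 24 nt, 752 genes were higher and 141 lower (84.2%), and the folds were 8.45, 6.89, 34.9, 23.6, 33.7 and 27.1 in the same order of classes. The differences were then 3.90 for mt-Rnr1, 3.41 for mt-Rnr2, 3.09 for mt-Th, 3.17 for n-TSgct5, 2.07 for n-TSaga9, 2.07 for n-TStga1, 3.78 for n-TPtgg2, 3.01 for Rny1, 4.00 for Gm26202, 3.37 for Snord83b, 4.51 for Gm24494, 4.39 for Gm23849, 4.40 for Gm26316, 4.32 for Gm25813, 3.66 for Gm25202, 3.51 for Rnu12 and 3.61 for Smcp. This follows from the scale, since miRNA is the class that differs most as a fold of total-read shares.

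Of the 5000 sequences with the most reads, 2691 were higher and 1820 lower. Genes with the same library order were 7 of 332 per miRNA read (median 5 pairs), with none of the 15 named genes among them, 15 of 332 per miRNA read of 20 to 24 nt (median 6), with Mirlet7b and Mir184 among them, 6 of 80 with at least 500 reads, 9 of 200 with at least 50% of reads of their own (chosen after seeing the data), and 26 to 41 when a replicate number was left out, which leaves 6 pairs and so is not on the same scale.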

Other observations

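The lengths at which single sequences moved differed by class. Among the 20000 sequences tested, called miRNA sequences that were lower in PANDORA-seq had a median length of 21 nt and those that were higher 28 nt, and for rRNA the medians were 26 nt and 35 nt. For snoRNA they were 29 nt and 38 nt and for snRNA 21 nt and 32 nt. In mitochondrial tRNA the order was turned, with 40 nt for lower and 38 nt for higher sequences. At 45 nt 385 of 480 sequences were higher and 48 lower, and at 15 nt 94 of 496 were higher and 339 lower, beside 47.1% higher and 42.1% lower of all 20000.

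Unmatched reads held sequences with large differences in both directions. A 33 nt sequence was read at 17761 to 41164 RPM in PANDORA-seq and at 9747 to 18296 RPM in traditional libraries, and a 30 nt sequence at 881 to 1746 RPM and at 30762 to 43920 RPM. Their genes were not identified here.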
